A study of Mus musculus with 12 samples.

Results

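L.J. was given to mice in 2 settings, with busulfan and without it, and spleen RNA of the 6 libraries with L.J. was compared with that of the 6 libraries without it, with the busulfan state kept as a term of the fit. All 12 libraries of the series entered the comparison, in 4 groups of 3. The first group received busulfan with L.J. at 10 mg/kg and was set against mice given busulfan alone. The third received L.J. at 10 mg/kg alone and was set against untreated controls. All were 8-week-old ICR mice, an outbred stock. Busulfan, an alkylating drug, is used to clear the bone marrow before transplantation. What L.J. stands for, the busulfan dose and the interval before collection are not stated in the labels, and the design text of the series names FMT effects without saying what FMT is or which groups received it. The question is which transcripts L.J. shifts alike in a spleen exposed to busulfan and in one that was not.

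Expression is given as FPKM, that is, fragments per length of gene and per number of fragments in the library. A gene was tested where its mean reached 1 FPKM in at least 1 of the 4 groups, which kept 13138 genes of 21004 and left out 7866. At this limit the lowest gene kept had a highest group mean of 1 FPKM and the nearest gene left out had 0.997 FPKM. Differences are given on the log2(FPKM + 1) scale, with L.J. minus no L.J., and are understated for weakly expressed genes. The deposited values hold no read numbers, so depth is unknown. Whether each library is a different mouse is not stated, so that a p-value speaks of the spread among these libraries, which may be technical.

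Spleen markers were present in every library, among them Ms4a1 of B cells, Spic of red pulp macrophages and Hba-a1 of red cells. Transcripts of neighbouring organs varied between libraries of a group. Amy2a5, a pancreatic amylase, stood at 0.73, 0.03 and 32.2 FPKM with busulfan and L.J., against 19030, 1484 and 55.8 FPKM with busulfan alone, and at 167, 19.2 and 1177 FPKM with L.J. alone, against 0, 0 and 0.25 FPKM in controls. Busulfan 1, busulfan 2 and L.J. 3 therefore stand apart, and the calls and the gene lists are also given without these 3 libraries. That fit leaves busulfan 3 as the only library of busulfan alone, so the reference under busulfan has no replicate. Its counts by p are to be read with that limit. Correlations of log2(FPKM + 1) were 0.915 to 0.986 between libraries of a group and 0.873 to 0.985 between groups.

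The 2 genes that passed the test belong to fat metabolism. Fatty acids released from lipoproteins or lipid droplets enter mitochondria as carnitine esters. CPT1A makes these esters at the outer membrane, and SLC25A20 carries them across the inner one. Many genes of this route are switched on by PPARs, nuclear receptors that bind fatty acids. ANGPTL4, a secreted protein, is a classic PPAR target and inhibits lipoprotein lipase.

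Angptl4 rose with L.J. in both states (gene 57875, chromosome 17, 33774900 to 33781575, RefSeq GRCm38.p6). It stood at 9.44, 10.4 and 9.84 FPKM with busulfan and L.J., against 2.27, 3.05 and 3.03 FPKM with busulfan alone. It stood at 7.20, 8.50 and 8.00 FPKM with L.J. alone, against 4.21, 2.96 and 3.84 FPKM in controls. The 6 libraries with L.J. all lay above the 6 without it. The common log2 difference was 1.23 (SE 0.12, limma adjusted p = 0.00344), made of 1.53 in busulfan-treated spleens and 0.94 in the others (SE 0.13 each). The difference between these values, 0.59 (SE 0.18), did not pass the test (limma adjusted p = 0.261).

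Cpt1a, which encodes the rate-limiting enzyme of mitochondrial fatty acid import, rose as well (gene 12894, chromosome 19, 3322326 to 3385735). Its values were 29.1, 27.0 and 31.4 FPKM with busulfan and L.J., against 13.02, 12.2 and 14.7 FPKM with busulfan alone. With L.J. alone they were 21.4, 23.1 and 23.8 FPKM, against 16.7, 14.4 and 14.7 FPKM in controls. Again every library with L.J. lay above every library without it. The common log2 difference was 0.81 (SE 0.10, limma adjusted p = 0.0225), made of 1.08 with busulfan and 0.55 without it (SE 0.10 each), and the interaction did not pass the test (limma adjusted p = 0.221).

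Angptl4 and Cpt1a were the only genes past an adjusted p of 0.05 in the 13138 tested, which is 0.0152% of them, both higher with L.J., and none was lower (0%). The third adjusted p was 0.083, and 11 genes lay under 0.1. By unadjusted p under 0.05, 2737 genes (20.8%) differed, of which 1706 (13.0%) were higher and 1031 (7.85%) were lower with L.J. The call of Cpt1a was lost in 8 of 12 fits that left out 1 library, where its adjusted p reached 0.112: without any library of busulfan with L.J., without busulfan 2 or 3, without L.J. 3, and without control 2 or 3. Without busulfan 1, 916 genes passed, and without L.J. 1, 271 passed. Without busulfan 1, busulfan 2 and L.J. 3 together, the log2 difference was 1.12 for Angptl4 and 0.68 for Cpt1a. In that fit busulfan 3 is the only library of busulfan alone. With the mean level of hepatocyte transcripts as a covariate neither gene passed (Angptl4 1.24, limma adjusted p = 0.0632, and Cpt1a 0.86, limma adjusted p = 0.170). Neither difference fell, against 1.23 and 0.81 as reported. The hepatocyte level was highest in controls, so this covariate overlaps with the L.J. term, and the lost calls cannot be told apart from that overlap.

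**Figure D1:**
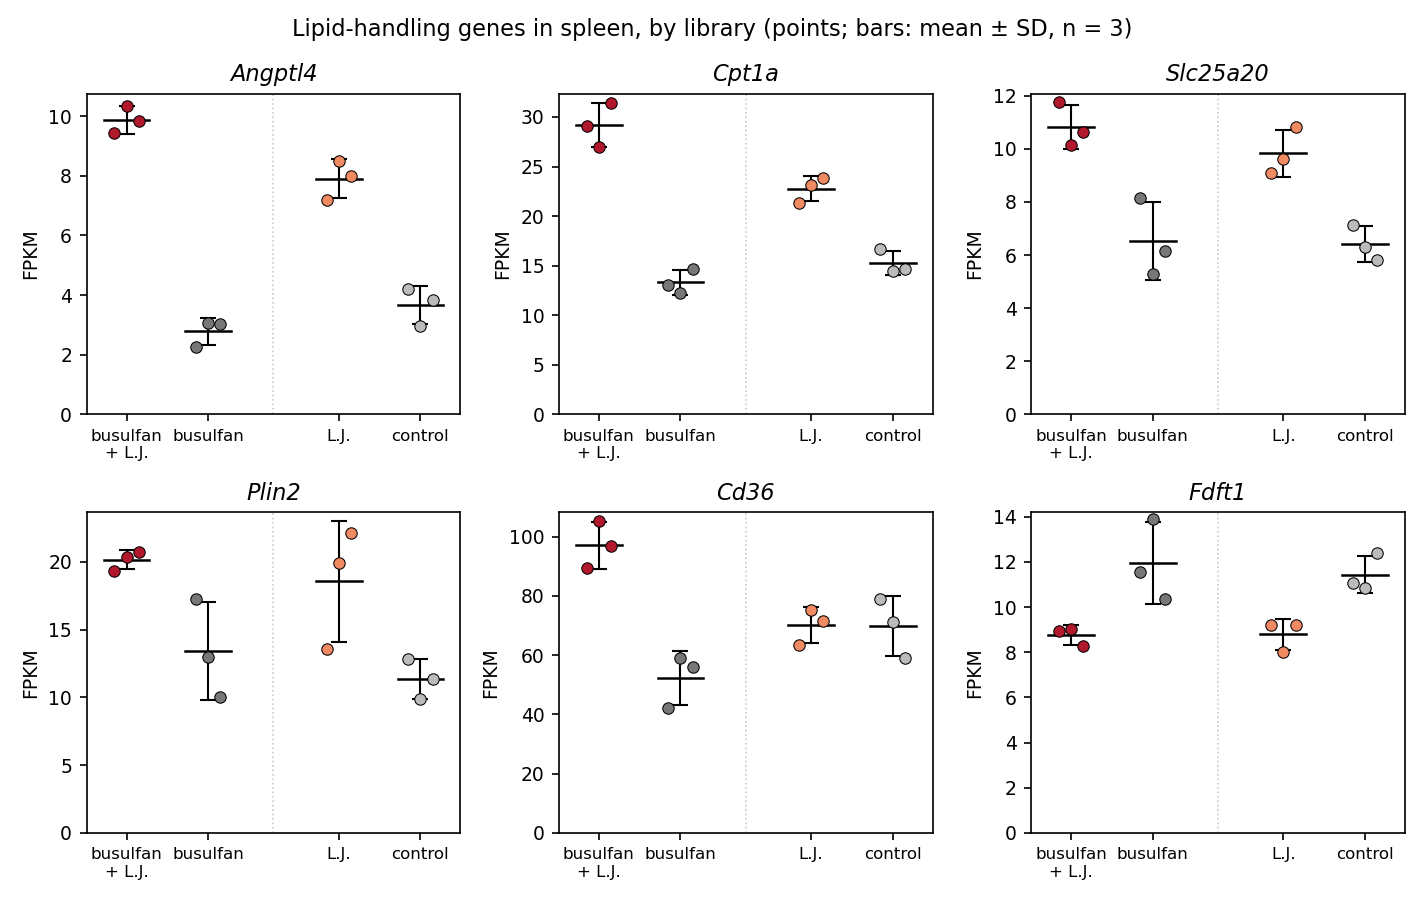
FPKM of 6 lipid-handling genes in each of the 12 libraries, with busulfan left of the dotted line and without it on the right; points are libraries and bars give the mean and SD (n = 3). In Angptl4 and Cpt1a all 6 libraries with L.J. lie above all 6 without it, while in Fdft1 all 6 with L.J. (8.01 to 9.20 FPKM) lie below all 6 without it (10.4 to 13.9 FPKM), and in Cd36 the ranges of L.J. alone (63.5 to 75.4 FPKM) and controls (59.1 to 79.0 FPKM) overlap.

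A list of 39 PPAR target genes had 31 members tested. Of these, 2 were called higher and none lower, and 26 had a positive difference, against 57.1% of all genes tested. By unadjusted p under 0.05, 11 were higher and 1 was lower, against 13.0% and 7.85% of all genes. These shares and the 57.1% are the background for the counts of every list below in the fit of all 12 libraries. For the fit without the 3 libraries that stand apart, such shares are not given. Its list counts therefore have no background here and show neither a gain nor a loss against all genes. In all 12 libraries the median log2 difference of the PPAR list was 0.13, against 0.035 over all genes, with 0.20 in busulfan-treated spleens and 0.10 in the others. Without the 3 libraries that stand apart, 26 differences were positive, 14 members had such a p in the higher direction and 2 in the lower, and the median was 0.28. In 8 members all libraries with L.J. lay above their references in both states, which 248 of all genes (1.89%) did. Plin2, Txnip, Cd36, Aqp7, Fabp4 and Adipoq, and the enzymes of the matrix spiral below, were chosen after their values were seen.

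Slc25a20, the carnitine-acylcarnitine carrier, stood at 11.8, 10.1 and 10.6 FPKM with busulfan and L.J., against 8.15, 5.27 and 6.16 FPKM with busulfan alone. It stood at 9.09, 9.61 and 10.8 FPKM with L.J. alone, against 7.14, 6.29 and 5.83 FPKM in controls. All 6 libraries with L.J. were above all 6 without it, and the difference was 0.61 (SE 0.10, limma adjusted p = 0.0891), with 0.67 under busulfan and 0.55 without it. Plin2, the main coat protein of lipid droplets, differed by 0.61 on the log2 scale (SE 0.13, limma adjusted p = 0.128). Its values were 19.4, 20.3 and 20.7 FPKM with busulfan and L.J., against 17.2, 12.99 and 10.02 FPKM with busulfan alone, and 13.6, 19.9 and 22.2 FPKM with L.J. alone, against 12.8, 9.89 and 11.4 FPKM in controls. L.J. 1 was thus close to control 1 for Plin2, as the plot of lipid genes shows.

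Txnip, which binds thioredoxin and restrains glucose uptake, had 0.53 (SE 0.10, limma adjusted p = 0.108), with 144 to 184 FPKM with busulfan and L.J., against 107 to 121 FPKM with busulfan, and 137 to 164 FPKM with L.J. alone, against 92.9 to 123 FPKM in controls. The ranges of Txnip did not overlap in either state.

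Other members had unlike values in the states. Cd36, a fatty acid receptor, had 0.89 with busulfan and 0.01 without it (interaction limma adjusted p = 0.198). Pdk4, which holds back pyruvate oxidation, had -0.04 with busulfan and 0.97 without it (common difference 0.46, SE 0.29, limma adjusted p = 0.371). Aqp7, a glycerol channel, was the member with an unadjusted p under 0.05 in the lower direction, with -0.49 (SE 0.13, limma adjusted p = 0.132). Fabp4, the adipocyte fatty acid binding protein, ranged from 10.7 to 68.3 FPKM within the L.J. group and from 27.6 to 87.2 FPKM within controls, with a difference of 0.05 (SE 0.60). Adipocyte markers varied in the same libraries: Adipoq stood at 7.29, 5.93 and 0.80 FPKM in L.J. 1 to 3, against 4.15, 1.49 and 9.21 FPKM in controls 1 to 3. Their part in the lipid genes was not tested.

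Of 37 genes of fatty acid oxidation, all tested, 1 was called higher (Cpt1a) and none lower. By unadjusted p under 0.05, 9 were higher and 2 lower, against 13.0% and 7.85% of all genes. Positive differences numbered 28, against 57.1% of all genes, with a median of 0.11. Without the 3 libraries, 31 were positive, 12 had such a p in the higher direction and 1 in the lower, and the median was 0.16. Enzymes of the matrix spiral had unlike differences, and none passed the test. Acadm had 0.08 (SE 0.07), Acadl 0.05 (SE 0.10) and Hadha 0.06 (SE 0.08). Hadh had 0.04 (SE 0.13), Echs1 0.10 (SE 0.18) and Acaa2 0.12 (SE 0.10). Acadvl, the very-long-chain dehydrogenase, had 0.17 (SE 0.07, limma adjusted p = 0.219) and Hadhb 0.19 (SE 0.10). Acads was the highest of these, with 0.41 (SE 0.18, limma adjusted p = 0.216). Of the 24 genes of cholesterol synthesis and uptake tested, none was called, 8 had an unadjusted p under 0.05 in the lower direction and none in the higher, and 7 differences were positive (median -0.14, with -0.25 in busulfan-treated spleens and -0.02 in the others).

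Fdft1, squalene synthase, led these (gene 14137, chromosome 14, 63145150 to 63181687). It stood at 8.96, 9.05 and 8.26 FPKM with busulfan and L.J., against 11.6, 13.9 and 10.4 FPKM with busulfan alone, and at 9.19, 8.01 and 9.20 FPKM with L.J. alone, against 11.1, 10.9 and 12.4 FPKM in controls. All 6 libraries with L.J. were below all 6 without it, and the difference was -0.37 (SE 0.08, limma adjusted p = 0.128). Insig1, which holds the sterol-sensing machinery in the endoplasmic reticulum, had -0.36 (SE 0.10, limma adjusted p = 0.134), and Hmgcs1, which makes the precursor of mevalonate, had -0.28 (SE 0.10, limma adjusted p = 0.175). Without busulfan 1, busulfan 2 and L.J. 3 the list's median was -0.02 and 3 members had an unadjusted p under 0.05 in the lower direction. Insig1 and Hmgcs1 were chosen after their values were seen.

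The 8 genes next in p in the higher direction, Slc25a20 among them, had positive differences in both states, as 35.0% of all genes did. A pick by small p of the common difference favours this. Il10ra, the ligand-binding chain of the interleukin-10 receptor, stood at 33.7, 30.4 and 34.3 FPKM with busulfan and L.J., against 20.2, 23.1 and 23.2 FPKM with busulfan, and at 33.9, 36.6 and 38.2 FPKM with L.J. alone, against 29.2, 25.0 and 27.3 FPKM in controls. All 6 values with L.J. were above the 6 without it (0.48, SE 0.07, limma adjusted p = 0.083). Cbr2, a carbonyl reductase, had the highest difference of the 8, 1.37 (SE 0.23, limma adjusted p = 0.0891), with 25.6, 25.9 and 21.2 FPKM with busulfan and L.J., against 7.27, 3.98 and 13.8 FPKM with busulfan, and 25.3, 25.2 and 17.3 FPKM with L.J. alone against 11.9, 10.0 and 6.71 FPKM in controls. Sesn1, a p53 and FOXO target that restrains mTORC1, had 0.47 (SE 0.08), Crkl, an adaptor of tyrosine kinase signalling, 0.35 (SE 0.06), Otub2, a deubiquitinase, 0.68 (SE 0.11), and Rmc1, a lysosomal trafficking factor, 0.48 (SE 0.08), each with limma adjusted p = 0.0891. Smagp, a small transmembrane protein, had 0.66 in both states (limma adjusted p = 0.102).

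In the lower direction the gene with the smallest p under the naming rule was Kap, a gene of the kidney tubule. It stood at 1.78, 0.57 and 1.15 FPKM with busulfan and L.J., against 7.80, 2.96 and 2.39 FPKM with busulfan alone, and at 4.07, 4.16 and 3.47 FPKM with L.J. alone, against 40.7, 18.4 and 21.6 FPKM in controls (-1.82, SE 0.30, limma adjusted p = 0.0891). Slc34a1, a phosphate carrier, was highest in controls as well, at 0.22 to 0.60 FPKM in the other 9 libraries and at 2.21 to 4.38 FPKM in controls. Of 12 kidney tubule genes tested, 3 had a positive difference. By unadjusted p under 0.05, 6 of them were lower and 1 was higher. The mean level of 12 tested kidney tubule genes was 1.69 to 1.87 with busulfan and L.J., 1.63 to 2.33 with busulfan, 1.83 to 1.96 with L.J. alone and 2.27 to 2.76 in controls, on the log2(FPKM + 1) scale, and its part in the difference of Kap was not tested. The other 9 genes lowest in p had differences from -0.27 to -0.63, with limma adjusted p from 0.108 to 0.128. They include Ofd1, a centriole protein (-0.38, SE 0.07), Bora, a cofactor of Aurora A and PLK1 (-0.39, SE 0.09), Klf7, a transcription factor (-0.63, SE 0.14), and Cd46, a complement regulator (-0.47, SE 0.09). For Ofd1 the groups were apart within each state, yet L.J. 1 at 8.31 FPKM exceeded busulfan 1 at 8.25 FPKM.

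The groups were apart in both states in 248 genes with higher values under L.J. (1.89%) and in 114 with lower values (0.868%), and were apart in opposite directions in 183 (1.39%). Differences had the same sign in both states in 7761 genes (59.1%), positive in 4597 (35.0%) and negative in 3164 (24.1%). The states share no library, and across genes their differences had a Pearson correlation of -0.22 and a Spearman correlation of 0.21, as a description over 13138 genes that are not independent. Without busulfan 1, busulfan 2 and L.J. 3 the Pearson value was 0.19, with 65.4% of signs shared. The 1000 genes with the smallest p for a higher value in busulfan-treated spleens were positive in the other state in 67.3%, against 54.0% of all genes. Ranked in spleens without busulfan, the corresponding 1000 were positive with busulfan in 67.7%, against 56.9% of all genes. For lower values the shares were 63.0% against 46.0%, and 63.0% against 43.1%. Among only 50 genes ranked without busulfan for higher values, 44.0% were positive with busulfan.

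**Figure D2:**
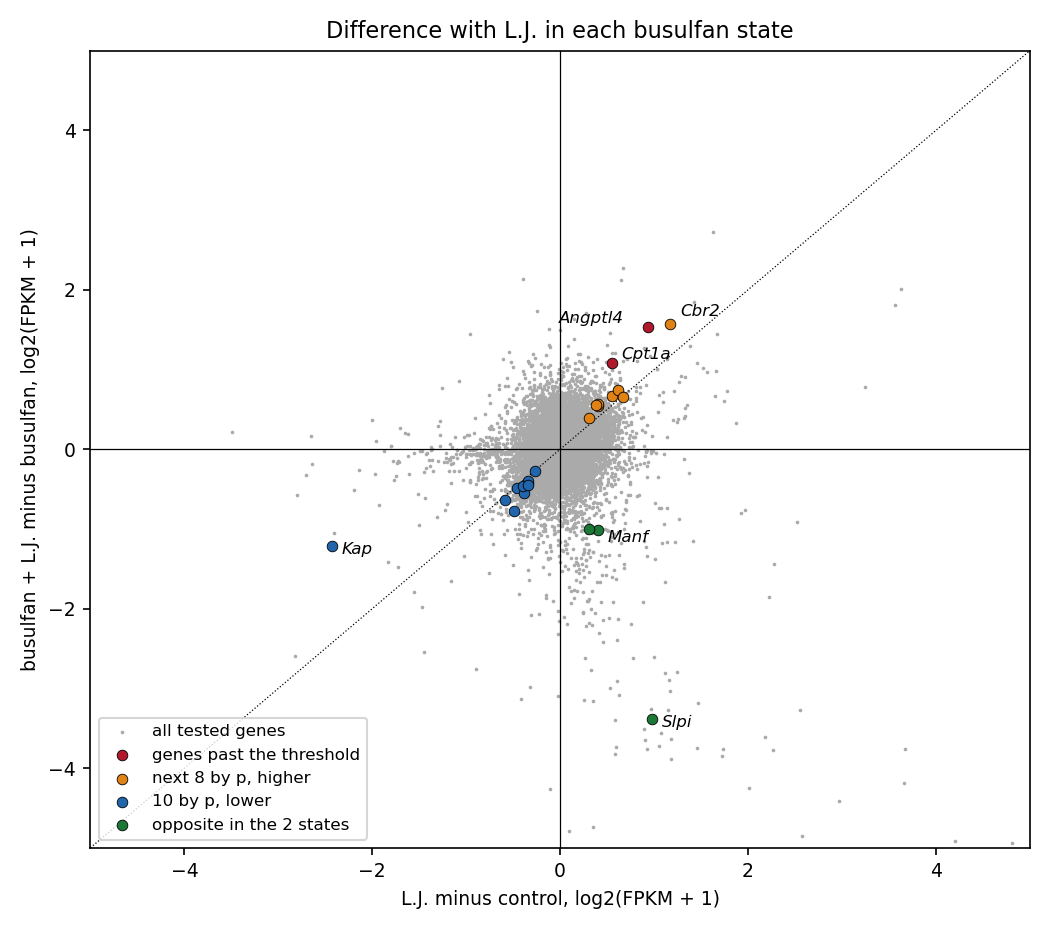
Log2 difference with L.J. in busulfan-treated spleens (vertical) against that in the other spleens (horizontal), on the log2(FPKM + 1) scale, for the genes tested; 22 genes beyond 5 on either axis are not drawn. Angptl4 (1.53 and 0.94) and Cpt1a (1.08 and 0.55) lie at the upper right, while Slpi (-3.38 and 0.98) and Manf (-1.01 and 0.40) lie in the lower right.

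Interferon-stimulated genes leaned upward as a group without a member passing the test. Type I interferons signal through a transcription factor complex that binds repeated GAAA blocks in the promoters of genes such as Isg15, Oas1a and Rsad2. All 32 tested members of the type I interferon list had a positive difference, 31 of them in both states, against 35.0% of all genes. Of the 32, 27 had an unadjusted p under 0.05, all higher. None was called. The median was 0.62, with 0.46 in busulfan-treated spleens and 0.91 in the others. The genes named from this list and from the cell type lists that follow were chosen after their values were seen.

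A pair of GAAA copies with any 2 bases between them, read on both strands from 250 bases before to 50 after each start, was found for 14 of the 24 list members with a RefSeq promoter (GRCm38.p6), against 4.06% of 10466 tested genes with one. A match is a description of the letters and no evidence of binding. The stretches below are shown for 3 members with such a match; each is 60 bases long, written 5′ to 3′ along the gene, with the matched letters in capitals, which may overlap; TTTC copies are the same motif on the other strand.
Isg15 (chr4:156200859-156200918, minus strand): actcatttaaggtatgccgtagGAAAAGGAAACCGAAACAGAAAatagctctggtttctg
Oas1a (chr5:120907526-120907585, minus strand): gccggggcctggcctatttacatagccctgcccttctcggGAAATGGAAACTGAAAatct
Rsad2 (chr12:26456533-26456592, minus strand): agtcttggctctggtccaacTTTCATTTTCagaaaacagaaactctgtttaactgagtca
For the PPAR list, a pair of AGGTCA copies with any 1 base between them was found for 0 of 23 members with a promoter and for 0.06% of tested genes, in the same window and on both strands. With 6 of 10466 tested genes matched, a list of 23 could hardly hold a match, so the 0 says nothing about PPAR binding. Sites with other letters or outside the window were not searched. Angptl4 had no RefSeq promoter and was not searched. Xaf1 has a promoter in the table without such a GAAA pair.

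Xaf1, a pro-apoptotic interferon target, stood at 37.3, 56.6 and 38.8 FPKM with busulfan and L.J., against 14.99, 24.7 and 25.6 FPKM with busulfan alone. It stood at 77.3, 68.6 and 100 FPKM with L.J. alone, against 36.9, 27.1 and 59.7 FPKM in controls. The groups were apart in each state (1.02, SE 0.20, limma adjusted p = 0.108). Oas1a, which makes the activator of RNase L, had 17.5, 18.3 and 15.1 FPKM with busulfan and L.J., against 9.40, 3.82 and 13.8 FPKM with busulfan, and 12.3, 18.9 and 33.7 FPKM with L.J. alone against 7.20, 4.62 and 5.32 FPKM in controls (1.32, SE 0.29, limma adjusted p = 0.128). Busulfan 3 was the highest busulfan library and L.J. 3 the highest of all.

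Usp18, which removes ISG15 from proteins, and Oasl1 had 1.12 (SE 0.25) and 1.06 (SE 0.25), each with limma adjusted p = 0.128, and were apart in both states. Isg15 had 61.2, 86.6 and 54.2 FPKM with busulfan and L.J., against 27.1, 18.2 and 72.4 FPKM with busulfan, and 48.2, 86.0 and 141 FPKM with L.J. alone, against 37.7, 22.8 and 24.3 FPKM in controls. Busulfan 3 overlapped the treated range here (1.27, SE 0.34, limma adjusted p = 0.133). Irf7, the amplifier of the type I response, had 126.6 FPKM in L.J. 3 and 27.99 and 53.6 FPKM in L.J. 1 and 2, against 11.9 to 21.3 FPKM in controls. The list's mean level was 4.49, 4.44 and 4.25 with busulfan and L.J., against 3.66, 3.49 and 4.53 with busulfan, and 4.18, 4.57 and 5.20 with L.J. alone, against 3.93, 3.49 and 3.74 in controls. Without busulfan 1, busulfan 2 and L.J. 3, 30 of 32 differences were positive, 8 had an unadjusted p under 0.05 and the median was 0.34. With the level of hepatocyte transcripts as a covariate, 31 were positive, 8 had an unadjusted p under 0.05 and the median was 0.38. That level was highest in controls and so overlaps with the L.J. term, which the smaller median cannot be told apart from.

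**Figure D3:**
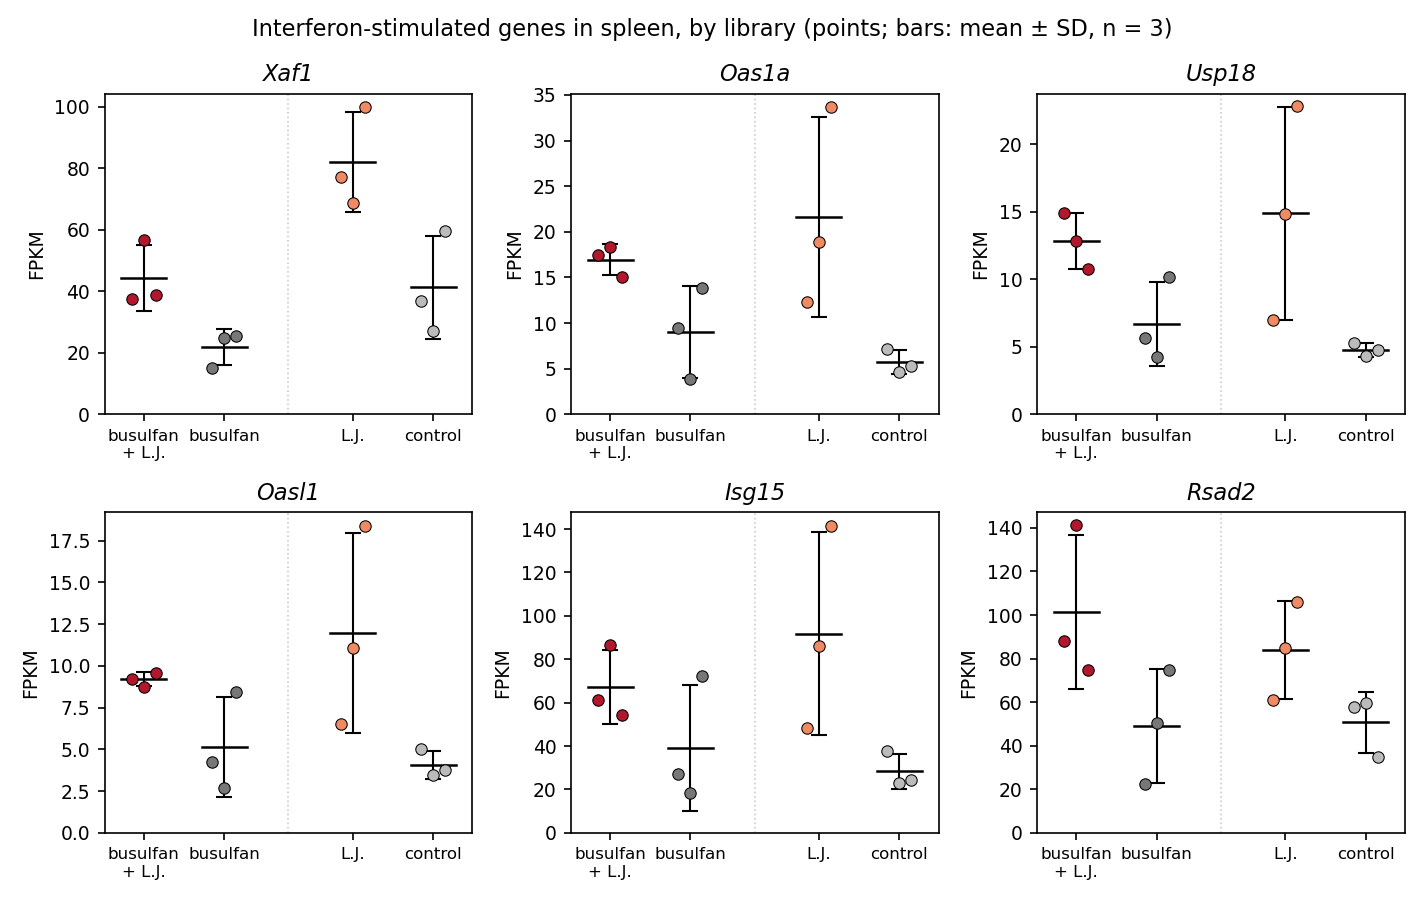
FPKM of 6 interferon-stimulated genes in each library; points are libraries and bars give the mean and SD (n = 3). Busulfan 3 is the highest busulfan library in the 6 genes, and L.J. 3 reaches 33.7 FPKM for Oas1a and 141 FPKM for Isg15.

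Genes induced mainly by interferon gamma showed a smaller shift. Of 25 tested, 23 differences were positive, 11 had an unadjusted p under 0.05, all higher, and none was called (median 0.35). Igtp and Irgm1, GTPases that act on vacuoles of intracellular pathogens, had 0.73 (SE 0.20) and 0.60 (SE 0.18), and Cxcl10, a ligand of CXCR3, had 0.72 (SE 0.22), with limma adjusted p from 0.134 to 0.146. Without busulfan 1, busulfan 2 and L.J. 3 this list had a median of 0.03, with 14 of 25 positive.

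Transcripts of natural killer cells were higher in most libraries with L.J. Of 37 genes of natural killer cells and cytotoxicity tested, of 39 on the list, 35 had a positive difference, 23 an unadjusted p under 0.05, all higher, and none was called (median 0.50, with 0.64 in busulfan-treated spleens and 0.29 in the others). In bulk RNA, more cells of a type and more RNA per cell cannot be told apart. Klra8, an activating receptor of the Ly49 family, had 6.18, 7.60 and 5.97 FPKM with busulfan and L.J., against 1.96, 1.97 and 2.19 FPKM with busulfan, and 3.35, 5.25 and 12.2 FPKM with L.J. alone, against 4.17, 3.72 and 4.19 FPKM in controls (0.91, SE 0.23, limma adjusted p = 0.128). Reads of the near-identical Klra genes may be shared between them. Prf1, the pore protein of cytotoxic granules, had 0.62 (SE 0.20, limma adjusted p = 0.153) and Klrk1, the receptor NKG2D, 0.60 (SE 0.17, limma adjusted p = 0.134). L.J. 1 lay below the 3 controls for Klra8, Klrk1 and Prf1, and no member was apart in both states. The list's mean level was 2.95, 2.99 and 2.86 with busulfan and L.J., against 2.06, 2.25 and 2.68 with busulfan, and 2.65, 3.16 and 3.27 with L.J. alone, against 2.79, 2.68 and 2.66 in controls. Without busulfan 1, busulfan 2 and L.J. 3, 26 of 36 were positive and the median was 0.25. Of 38 T cell genes tested, 20 were positive, against 57.1% of all genes, and none had an unadjusted p under 0.05 (median 0.02). Without the same 3 libraries, 5 of the 38 T cell genes were positive, 2 had such a p, both lower, and the median was -0.22. For dendritic cells, 22 of 28 were positive, against 57.1% of all genes. Of these 28, 6 had such a p, all higher, against 13.0% of all genes. Irf8, the factor that specifies type 1 dendritic cells, led them (0.40, SE 0.10, limma adjusted p = 0.128). The dendritic cell median was 0.20, and without the 3 libraries it was 0.05, with 20 of 28 positive and 3 with such a p.

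**Figure D4:**
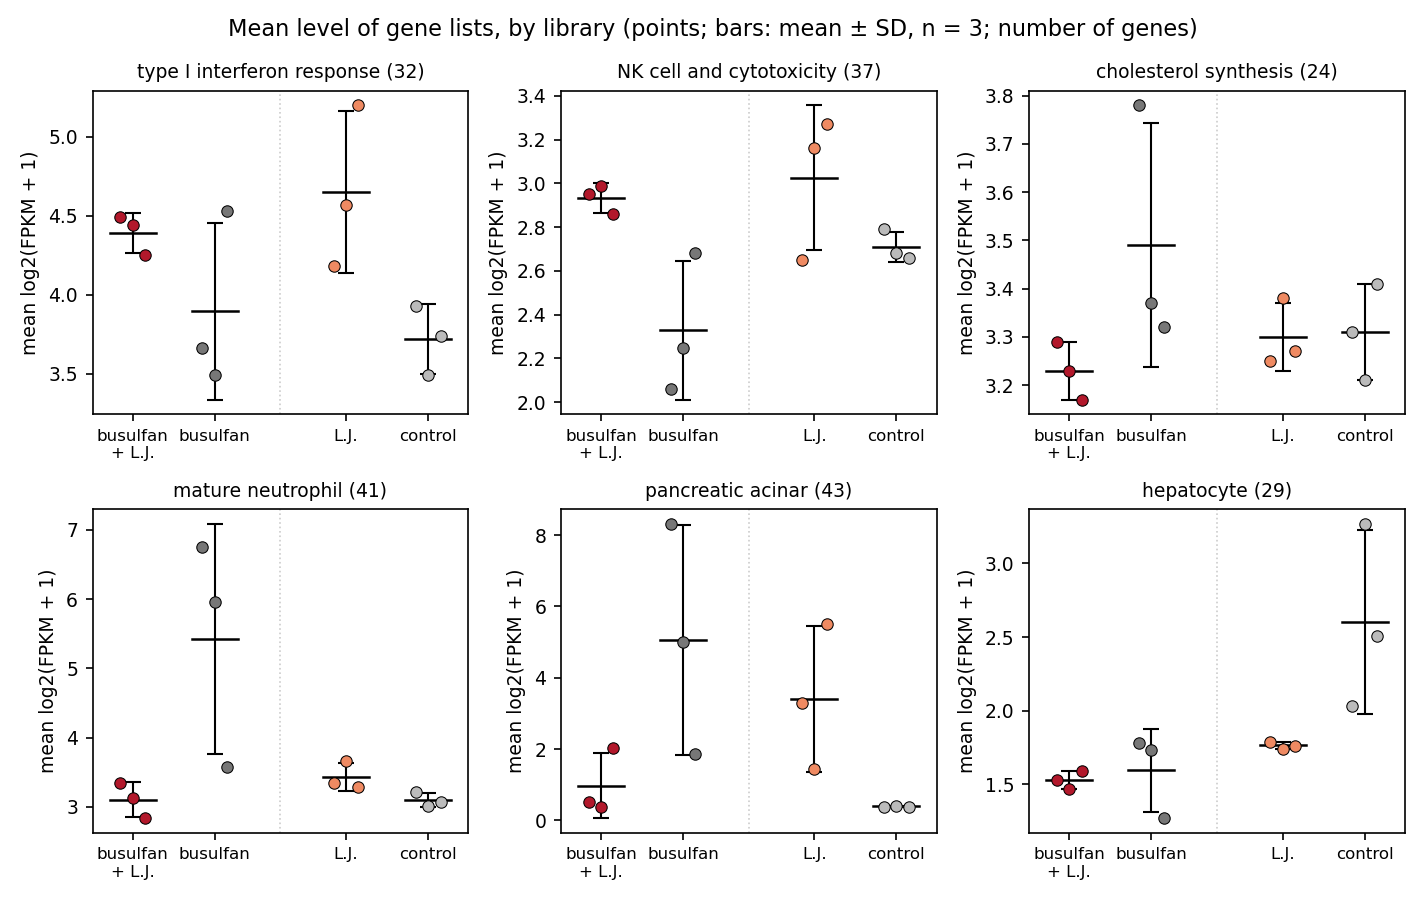
Mean log2(FPKM + 1) of the tested genes of 6 lists in each library; points are libraries and bars give the mean and SD over 3 libraries. Natural killer levels are 2.86 to 2.99 with busulfan and L.J. and 2.06 to 2.68 with busulfan alone, neutrophil levels are 6.76 and 5.96 in busulfan 1 and 2, and hepatocyte levels are 2.03 to 3.27 in controls and at most 1.79 in the other groups.

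Of the collagen and stromal genes, all 39 tested had a positive common difference, 23 of them in both states, against 35.0% of all genes. By unadjusted p under 0.05, 13 were higher and none lower, and none was called (median 0.19). Without the 3 libraries that stand apart, 39 of 40 were positive, 15 had such a p and the median was 0.29. Col3a1, fibrillar collagen of the splenic reticulum, had 22.0, 32.4 and 37.3 FPKM with busulfan and L.J., against 14.7, 14.3 and 14.2 FPKM with busulfan, and 38.0, 30.6 and 23.6 FPKM with L.J. alone, against 20.4, 17.5 and 23.3 FPKM in controls, where L.J. 3 nearly met control 3 (0.78, SE 0.15, limma adjusted p = 0.108). Col1a2 had 0.50 (SE 0.10, limma adjusted p = 0.108), while Col1a1, its partner chain, had 0.09 (SE 0.21, limma adjusted p = 0.838). The sign of Col1a1 turned in 3 fits without 1 library and with hepatocyte level as a covariate. Of 23 complement genes tested, 6 had an unadjusted p under 0.05 in the higher direction and 1 in the lower. These counts compare with 13.0% and 7.85% of all genes. C2, a protease of the classical pathway, had 0.41 (SE 0.09, limma adjusted p = 0.128) and was apart in both states. Without the 3 libraries, 8 of 22 had such a p, all higher.

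Heat shock genes and ribosomal protein genes also leaned upward. Of 19 heat shock genes, all tested and all positive, 11 had an unadjusted p under 0.05 and none was called (median 0.30). Without the 3 libraries that stand apart, 17 were positive, 3 had such a p and the median was 0.19. Hsph1, a nucleotide exchange factor of HSP70, had 60.8, 55.8 and 85.4 FPKM with busulfan and L.J., against 23.6, 23.6 and 60.6 FPKM with busulfan, and 65.7, 87.4 and 89.0 FPKM with L.J. alone, against 32.1, 58.5 and 30.3 FPKM in controls (1.02, SE 0.24, limma adjusted p = 0.128). Only busulfan 3 reached into the treated range of its state. Of 75 cytosolic ribosomal protein genes, 34 had an unadjusted p under 0.05 in the higher direction and 5 in the lower, with 53 positive and a median of 0.24; without the 3 libraries the ribosomal counts were 36 higher and 1 lower, with a median of 0.26. Rpl21, among those lower, had -0.35 (SE 0.11, limma adjusted p = 0.151), and no member was apart in both states.

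Several lists had opposite medians in the 2 states, so their common difference describes neither. Mature neutrophil genes had -2.14 with busulfan and 0.34 without it, and their mean level was 3.34, 3.13 and 2.84 with busulfan and L.J., against 6.76, 5.96 and 3.57 with busulfan alone. Their common median was -0.86, with 1 of 41 positive; it was -0.41 without busulfan 1, and 0.18 without busulfan 1, busulfan 2 and L.J. 3, with 26 of 40 positive. Plasma cell genes had -0.58 and 0.31, genes of the unfolded protein response -0.40 and 0.34, B cell genes 0.49 and -0.19, and platelet genes -0.21 and 0.37. Pancreatic acinar genes had -4.29 and 2.97. The common medians of the plasma cell, unfolded protein and B cell lists were -0.03, -0.03 and 0.20, and without the 3 libraries they were -0.04, 0.01 and -0.05. The platelet median was 0.13, with 21 of 28 positive. By unadjusted p under 0.05, 0 platelet genes were higher and 1 was lower. Without the 3 libraries that median was 0.44, with busulfan 3 as the only reference under busulfan. The acinar median was -0.49, and without them it was 1.18. Endothelial genes had 0.46 and -0.07, with a common median of 0.17, or 0.27 without the 3 libraries. Igfbp7, a matrix protein of sinusoidal endothelium, had 1.08 with busulfan and 0.16 without it (common difference 0.62, SE 0.16, limma adjusted p = 0.128).

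The interaction of L.J. and busulfan called no gene by limma (0%), while 1506 (11.5%) had an unadjusted p under 0.05, and the smallest adjusted p was 0.0928. That value belonged to Slpi, an inhibitor of neutrophil serine proteases, and to Manf, a secreted protein of the endoplasmic reticulum stress response. Slpi stood at 67.8, 43.1 and 50.9 FPKM with busulfan and L.J., against 1123, 624 and 253 FPKM with busulfan alone, and at 112, 81.1 and 104 FPKM with L.J. alone, against 48.2, 40.9 and 59.9 FPKM in controls. Manf stood at 50.8, 50.3 and 60.9 FPKM with busulfan and L.J., against 127, 103 and 101 FPKM with busulfan alone, and at 86.0, 74.4 and 98.0 FPKM with L.J. alone, against 64.7, 59.6 and 69.7 FPKM in controls. Both were apart in each state, lower with L.J. under busulfan and higher with L.J. without it. Without busulfan 3, 511 genes passed the interaction test.

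**Figure D5:**
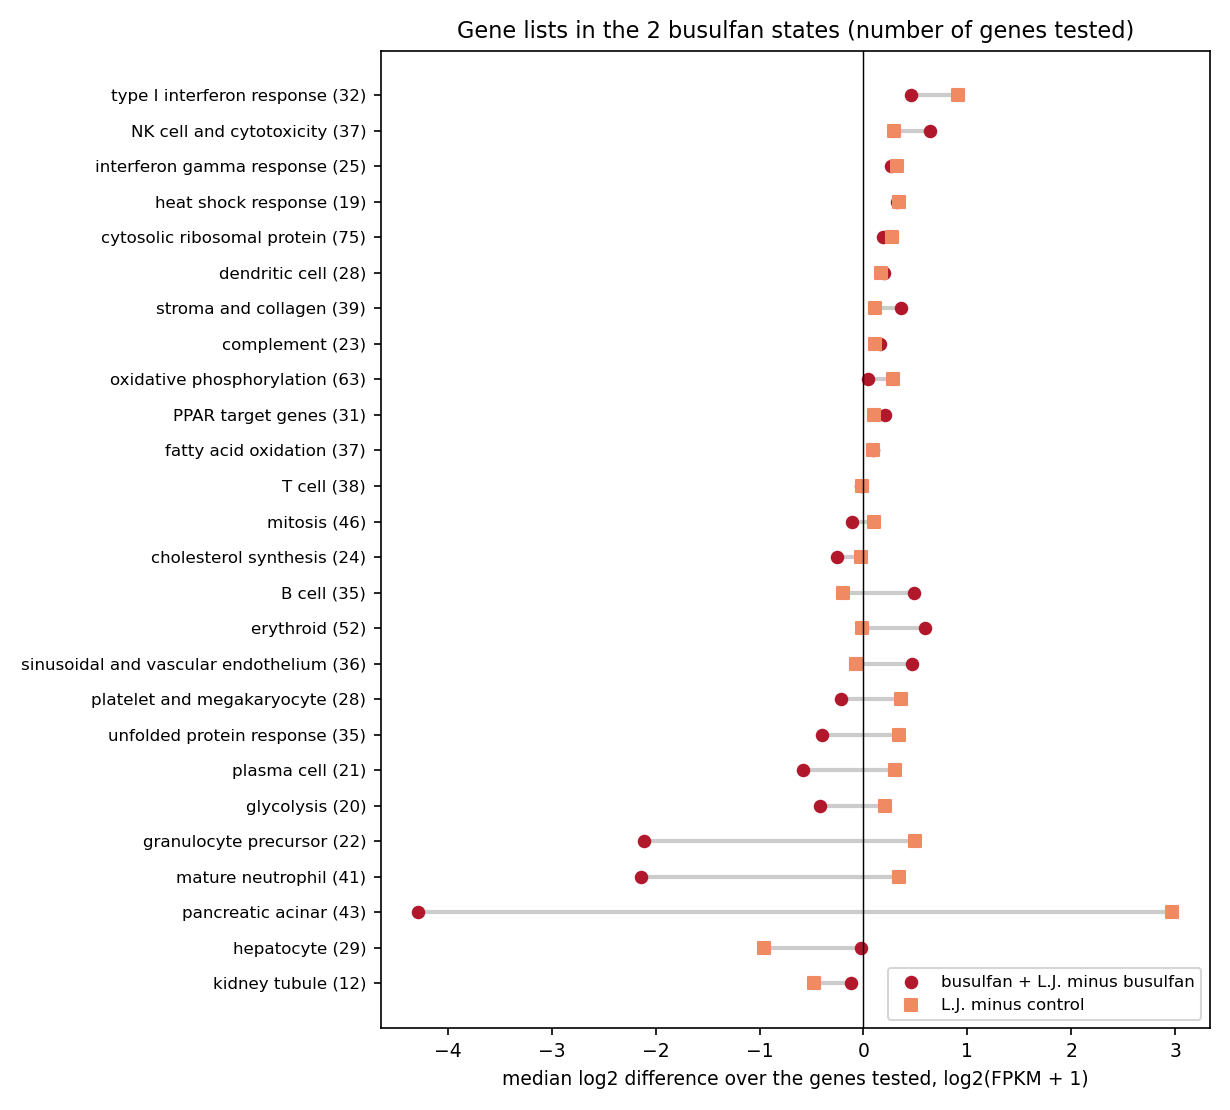
Median log2 difference over the tested genes of 26 lists, with circles for busulfan with L.J. minus busulfan and squares for L.J. minus control; numbers in brackets are genes tested. Interferon, natural killer, heat shock and ribosomal lists lie right of 0 in both states, and the neutrophil (-2.14 and 0.34) and acinar (-4.29 and 2.97) lists lie on opposite sides.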

How the data were processed

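Spleen RNA was sequenced in 12 libraries, whose group and number come from the labels. The values that the authors deposited are FPKM per gene, per the file headers. Bowtie 0.12.2 and the build mm10 are named, per the submitters' processing notes, with no role stated; counting and strand handling were not given in the sources used here. Each FPKM value depends on the total of its library, so very abundant transcripts lower all others. The FPKM sums were 511876 to 580364 per library, and 12249 to 13129 genes reached 1 FPKM. The deposited FPKM values give no read numbers, so no count test was run. For 26 genes a spreadsheet date was turned back into a symbol through the gene number; 99.2% of the gene numbers were in the RefSeq gene table, which also gave coordinates (GRCm38.p6).

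Values were transformed to log2(FPKM + 1) and fitted for all 13138 genes in R 4.3.3 by limma 3.58.1, with its trend and robust options on, with terms for busulfan state and L.J. and 9 residual degrees of freedom. Benjamini-Hochberg adjustment covered all genes at a threshold of 0.05. The interaction came from a fit with 1 mean per group. The script was tested on simulated data. The genes compared and 46 lists were chosen with earlier results of these data known. The naming rule takes called genes apart in both states, with the genes smallest in p filling up to 10 per direction (without predicted genes and receptor segments), the 3 members smallest in p of each list with a call, fixed markers and 5 interaction genes; not every one is described. Alternatives covered normalization, pseudocounts of 0.1 and 5, filters, model terms, library weights, organ scores as covariates and each library left out. Tables used Python 3.11.15 with pandas 2.3.3 and plots matplotlib 3.10.9.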

Additional observations from a re-analysis of the deposited data

Results flagged for a closer look

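In 5 genes a library lay far from the other 5 of its arm of 6 by Dixon's ratio, a mark that chance gives to about 1 in 20 arms. These were Rmc1 in L.J. 1 (14.6 FPKM, below the other libraries with L.J.), Rhbdd1 in L.J. 1 (8.14 FPKM, above them), Mki67 in busulfan with L.J. 2 (250.6 FPKM, above them), Ofd1 in busulfan 1 (8.25 FPKM, below the other libraries without L.J.) and Bora in busulfan 1 (28.6 FPKM, below them). The number of arms searched is not given here, so the 5 marks cannot be set against the share that chance gives. Each arm also pools both busulfan states.

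In 4 named genes the groups were apart in opposite directions in the 2 states, as they were in 183 of all genes tested (1.39%). Slpi, Manf and Sec11c were among the genes named for a small interaction p, a pick that favours this pattern. The difference between the states, with busulfan minus without it, was -4.37 for Slpi (limma adjusted p = 0.0928), -1.42 for Manf (limma adjusted p = 0.0928), -1.31 for Sec11c, a signal peptidase subunit (limma adjusted p = 0.0963), and -15.4 for Amy2a5 (limma adjusted p = 0.192) on the log2 scale. The test of this difference was passed by none of them.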

How the results depend on the processing

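The reported fit called 2 genes higher and 0 lower. The count and its direction held with no busulfan term, quantile normalization, median of ratios scaling, pseudocounts of 0.1 and 5, a mean of at least 5 FPKM, no robust option and the acinar level as a covariate. With 1 mean per group 3 genes passed, 1 of them lower. With no filter, 1 passed (Cpt1a at a limma adjusted p of 0.0569), and with the hepatocyte level as a covariate, or without busulfan 1, busulfan 2 and L.J. 3 together, 0 passed. Library weights called 1221 genes, 795 higher and 426 lower, and 220 for the interaction. Leaving out 1 library gave 1 to 916 calls, 1 to 576 higher and 0 to 340 lower, and 0 to 511 for the interaction (511 without busulfan 3). Without L.J. 1 there were 271 calls, 158 higher and 113 lower, and without L.J. 2 there were 3. The causes were not tested. Angptl4 ranged from 0.76 (pseudocount 5) to 1.45 (pseudocount 0.1) and Cpt1a from 0.68 to 0.87. Correlations of deviations between same-numbered libraries ran from -0.31 to 0.33 (median 0.03), with 8 of 18 over 0.1. Between libraries of other numbers they ran from -0.40 to 0.37 (median -0.03), with 11 of 36 over 0.1. Whether replicate numbers pair the samples cannot be told from these values. With the number as a replicate block 1 gene passed, Angptl4, which was higher, and Cpt1a had limma adjusted p = 0.0929.

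The sign of 4 uncalled genes turned. Amy2a5, at -0.51 as reported, was 0.21 with a pseudocount of 0.1, 2.19 with library weights, 0.46 with the acinar covariate and 2.06 without the 3 libraries, and with 1 library left out it ran from -2.01 to 1.24. With the hepatocyte covariate Mki67 was 0.0045 (-0.13 as reported), Col1a1 -0.049 (0.09 as reported) and Alb 0.11 (-0.71 as reported); Col1a1 ran from -0.051 to 0.22 with 1 library left out. FPKM without read numbers gives no counting error, and 3 libraries a group limit all intervals.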
